A study of Mus musculus with 6 samples.

Results

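The genes that attach ATG8 proteins to membranes and cleave them off again were examined in mouse embryonic fibroblasts after deletion of Kansl1. They were chosen by symbol from the deposited expression table and comprise Atg7, Atg3, Atg10, Atg12, Atg5, Atg16l1 and the 4 proteases Atg4a, Atg4b, Atg4c and Atg4d. All 10 genes were found once each among the 26898 genes of the table. RNA sequencing had been performed on primary mouse embryonic fibroblasts (MEFs), connective tissue cells cultured directly from C57BL/6 mid-gestation embryos and used at passage 3. The WT cells (Kansl1fl/fl) carry Kansl1 alleles flanked by recombination sites, and the KO cells (Kansl1fl/fl/CAG-cre) carry the same alleles plus a Cre recombinase that tamoxifen activates and that the ubiquitously active CAG promoter drives. Both genotypes had been given tamoxifen (1 μM, 48 h). There were 3 samples in each group, WT 4, 5 and 8 and KO 3, 7 and 10, which the study describes as separate mice. Cells with Cre and an intact Kansl1 gene were not analysed here, so effects of Kansl1 loss and of Cre cannot be told apart.

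Macroautophagy encloses cell material in a double membrane, the autophagosome, and ATG8 proteins (the LC3 and GABARAP families) are fixed to the lipid phosphatidylethanolamine of that membrane by a pathway that resembles ubiquitin conjugation. ATG4 proteases first trim newly made ATG8 proteins, ATG7 then activates them as the E1 enzyme, ATG3 carries them as the E2 enzyme, and a complex of ATG12, ATG5 and ATG16L1 acts like an E3 ligase at the membrane. ATG12 is itself a ubiquitin-like protein, which ATG7 and a second E2 enzyme, ATG10, join to ATG5. ATG4 proteases later cut ATG8 proteins from the lipid again, so that they can be reused. In fibroblasts, LC3 lipidation is the usual marker by which autophagosome formation is followed.

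The libraries held between 17655495 (KO 3) and 27718259 (KO 7) reads assigned to genes, as recovered from the deposited values. Kansl1 itself fell, from a WT mean of 26.6 ± 2.06 TPM (SD, n = 3) to a KO mean of 14.6 ± 1.04 TPM (SD, n = 3), with every KO sample below every WT sample. TPM, a length-corrected transcript abundance, divides the reads of a gene by its length and scales each sample to the same total. All 10 fibroblast markers on the list used (among them Col1a1, Vim and Fn1) were at 1 TPM or more in every sample. The summed TPM of 6 macrophage markers was 33.4 to 37.7 across WT and 69.6 to 139 across KO, although Ptprc, the general leukocyte marker, was below 1 TPM in all. Most of this sum was Lyz2, the only one of the 6 that was called. Cd68, Adgre1 and Csf1r were not called but were also above all WT samples in every KO sample (log2 fold changes of 0.85, 0.81 and 0.83), while Cd14 overlapped (0.08). Adgre1 was at 0.343, 0.775 and 1.14 TPM in WT 4, WT 5 and WT 8, so that it entered the test only through its KO level. Sums of 4 epithelial markers (40.4 to 45.7 TPM in WT, 49.2 to 66.3 in KO) and of 4 endothelial markers (1.10 to 1.87 and 2.31 to 3.10) were also higher in every KO sample. So were their members Krt8, Krt18 and Kdr (log2 fold changes of 0.61, 0.36 and 0.54, none called). Of all tested genes, 13.3% had every KO sample above every WT sample. The epithelial and endothelial markers Epcam, Cdh1, Pecam1 and Cdh5 were below 1 TPM in all samples. The part of such cells in the results below was not tested, and in bulk samples fewer cells of a type and less RNA per cell cannot be told apart. KO 7 stood apart from the other samples by its sex chromosomes: it alone expressed Xist (117 TPM, against at most 0.0230 TPM in the others) and was listed at 0 for 4 Y-linked genes. Without KO 7, the limma fit called 938 genes lower and 84 higher, against 1337 and 242 with all samples. Leaving out any other single sample gave 617 to 850 lower and 112 to 252 higher.

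In KO MEFs, 3 of the 10 genes fell and 0 rose. The genes that fell were Atg4a and Atg4c, which encode proteases, and Atg7, which encodes the E1 enzyme. A gene was called where its log2 fold change exceeded 0.5 in size and its p-value, adjusted by Benjamini-Hochberg over 14799 genes in a limma fit of log2(TPM + 1), was under 0.005. By this rule, 9.03% of all tested genes were lower and 1.64% were higher. The numbers of genes lower and higher were 1441 and 473 with median-of-ratios scaling and 1799 and 642 with voom. No member had a log2 fold change above 0 at an unadjusted p-value under 0.05 in limma, and voom on the recovered reads also called 0 members higher. The median log2 fold change was -0.32 over the 10 members and -0.07 over all tested genes. All 10 values were below 0, as were 57.4% of those of all tested genes. With median-of-ratios scaling and with voom, 8 of 10 remained below 0, and the median over all tested genes was 0.02 and 0.03, respectively. In 6 of the 10 genes (Atg7, Atg12, Atg5, Atg4a, Atg4c and Atg4d) all 3 KO samples lay below all 3 WT samples, a separation also seen in 29.9% of tested genes. By mean TPM, the members lay between the 27.2th percentile (Atg4d) and the 77.6th percentile (Atg3) of tested genes.

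**Figure D1:**
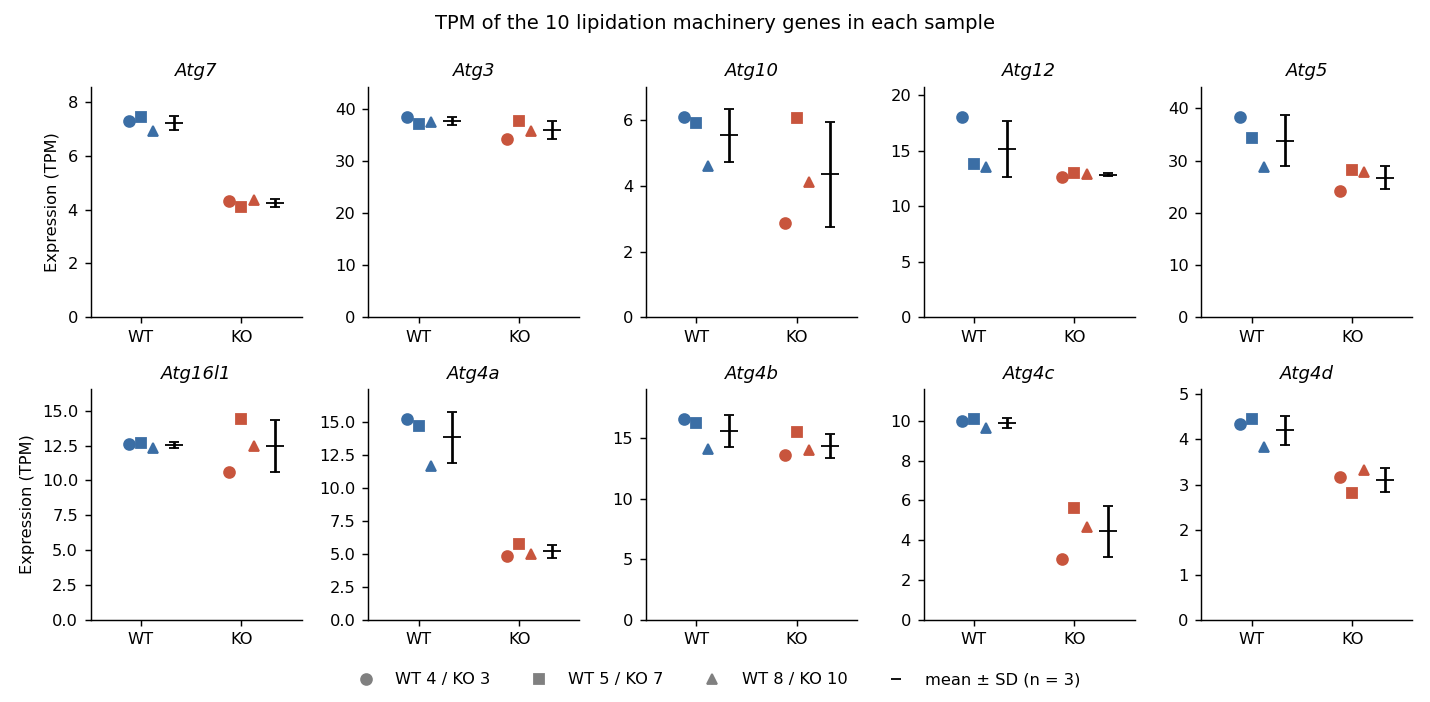
Expression of each of the 10 genes in TPM (vertical axes, each from 0) in the WT samples (blue) and KO samples (red). Symbols name the sample and imply no pairing, and bars give the mean and SD of 3 samples. The WT and KO samples of Atg7, Atg4a and Atg4c are far apart, whereas those of Atg3, Atg4b, Atg10 and Atg16l1 overlap.

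Atg7 (ENSMUSG00000030314.16; GRCm38 chromosome 6, plus strand, 114643097 to 114860614) encodes the only E1 enzyme of the pathway and serves both ATG8 proteins and ATG12. Its level was 7.30, 7.45 and 6.92 TPM in WT 4, WT 5 and WT 8, respectively, against 4.32, 4.09 and 4.36 TPM in KO 3, KO 7 and KO 10. The lowest WT sample was well above the highest KO sample, and within each group the values were tight. In KO cells the level fell to a mean of 4.26 ± 0.146 TPM (SD, n = 3), 58.9% of the WT mean of 7.22 ± 0.273 TPM (SD, n = 3). The log2 fold change on the log2(TPM + 1) scale was -0.65 (SE 0.12, 95% interval -0.91 to -0.38), with a limma adjusted p-value of 0.00375. Between 219 and 457 reads per sample supported these levels. The call rested on all 6 samples: with any one of them left out, the log2 fold change stayed between -0.67 and -0.62, but the limma adjusted p-value was 0.0085 to 0.0222 and missed the threshold.

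The E2 enzymes did not pass the test. Atg3 (ENSMUSG00000022663.3, chromosome 16 from 45158785 to 45188538, plus strand) carries activated ATG8 proteins to the lipid, and it had the highest mean level of the 10 genes. Its level was 38.5, 37.1 and 37.5 TPM in WT 4, WT 5 and WT 8, respectively, against 34.3, 37.7 and 35.8 TPM in KO 3, KO 7 and KO 10. The groups overlapped, since KO 7 was above WT 5 and WT 8. The log2 fold change was -0.07 (95% interval -0.28 to 0.14, limma adjusted p-value 0.612). This interval lies inside the thresholds of 0.5 on either side, and with median-of-ratios scaling and voom the sign turned (0.03 in both).

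Atg10 (ENSMUSG00000021619.6, chromosome 13 from 90935356 to 91223968, minus strand) carries ATG12 to ATG5. Its level was 6.11, 5.91 and 4.60 TPM in WT 4, WT 5 and WT 8, respectively, against 2.88, 6.07 and 4.11 TPM in KO 3, KO 7 and KO 10. KO 3 and KO 10 were below all WT samples, while KO 7 was as high as the highest WT samples. The log2 fold change was -0.32, and its 95% interval of -0.80 to 0.16 was the widest of the 10 genes (limma adjusted p-value 0.292). Atg10 was also the gene with the fewest reads, from 36 in KO 3 to 101 in KO 7. Counting error alone (exact Poisson 95% interval) placed KO 3 between 2.02 and 3.99 TPM and KO 7 between 4.94 and 7.37 TPM. Without KO 7, the log2 fold change was -0.55 with a limma adjusted p-value of 0.0672, and without KO 3 it was -0.11.

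The genes of the E3-like complex were also not called. Atg12 (ENSMUSG00000032905.5, chromosome 18 from 46730144 to 46741580, minus strand), the ubiquitin-like part, was at 18.1, 13.8 and 13.6 TPM in WT 4, WT 5 and WT 8, respectively, against 12.7, 13.0 and 12.9 TPM in KO 3, KO 7 and KO 10. The groups did not overlap, but WT 5 and WT 8 were close to the KO samples and only WT 4 stood well above them. Its log2 fold change was -0.21 (95% interval -0.50 to 0.08, limma adjusted p-value 0.257), and without WT 4 it was -0.08.

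Atg5 (ENSMUSG00000038160.7, chromosome 10 from 44268358 to 44364291, plus strand), which receives ATG12, was at 38.4, 34.4 and 28.8 TPM in WT 4, WT 5 and WT 8, respectively, against 24.1, 28.3 and 27.9 TPM in KO 3, KO 7 and KO 10. The lowest WT sample and the highest KO sample nearly touched. The KO mean was 79.1% of the WT mean, and the log2 fold change of -0.32 (95% interval -0.61 to -0.04) had a limma adjusted p-value of 0.0902.

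Atg16l1 (ENSMUSG00000026289.15, chromosome 1 from 87755870 to 87792428, plus strand) encodes the scaffold that brings the complex to the membrane. It was at 12.6, 12.7 and 12.3 TPM in WT 4, WT 5 and WT 8, respectively, against 10.6, 14.4 and 12.5 TPM in KO 3, KO 7 and KO 10. The WT values lay inside the spread of the KO values, and both means rounded to 12.5 TPM. The log2 fold change was -0.02 (95% interval -0.30 to 0.27, limma adjusted p-value 0.944), and its sign turned under another scaling (0.08 with median-of-ratios scaling).

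The Atg4 proteases differed most among themselves. Atg4a (ENSMUSG00000079418.3, chromosome X from 140956907 to 141164270, plus strand) encodes a protease that acts mainly on the GABARAP family, and its fall was the largest of the 10 genes and the 266th lowest log2 fold change of 14799. Its level was 15.2, 14.7 and 11.6 TPM in WT 4, WT 5 and WT 8, respectively, against 4.86, 5.74 and 4.97 TPM in KO 3, KO 7 and KO 10. The lowest WT sample was more than double the highest KO sample. In KO cells the level fell to a mean of 5.19 ± 0.481 TPM (SD, n = 3), 37.6% of the WT mean of 13.8 ± 1.92 TPM (SD, n = 3). The log2 fold change was -1.25 (SE 0.14, 95% interval -1.56 to -0.95), with a limma adjusted p-value of 0.000368. Atg4a is X-linked and KO 7 expressed Xist. Without KO 7 the log2 fold change was -1.32 (limma adjusted p-value 0.00134). Of the 50-base stretches in its transcripts, 51.2% also occur in the retrogene Atg4a-ps. That retrogene was assigned between 1 and 6 reads per sample, against 94 to 342 for Atg4a, and how the authors counted reads matching both was not stated.

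Atg4c (ENSMUSG00000028550.15, chromosome 4 from 99193934 to 99259787, plus strand) encodes a further member of the protease family. Its level was 10.0, 10.1 and 9.63 TPM in WT 4, WT 5 and WT 8, respectively, against 3.08, 5.64 and 4.65 TPM in KO 3, KO 7 and KO 10. All WT samples were close together, and the KO samples were lower and more spread. In KO cells the level fell to a mean of 4.45 ± 1.29 TPM (SD, n = 3), 45.0% of the WT mean of 9.91 ± 0.242 TPM (SD, n = 3), and the log2 fold change was -1.03 (SE 0.18, 95% interval -1.42 to -0.64, limma adjusted p-value 0.0026). Counting error (exact Poisson 95% interval) placed KO 3, the library with the fewest reads, between 2.42 and 3.86 TPM and KO 7 between 4.85 and 6.51 TPM. Without WT 4, WT 5 or WT 8 the limma adjusted p-values were 0.00656, 0.00743 and 0.00867, which missed the threshold, and the log2 fold changes remained between -1.05 and -1.02.

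Atg4b (ENSMUSG00000026280.17, chromosome 1 from 93751500 to 93790610, plus strand) encodes the protease that handles most ATG8 proteins in cells. Its level was 16.5, 16.2 and 14.1 TPM in WT 4, WT 5 and WT 8, respectively, against 13.6, 15.5 and 14.0 TPM in KO 3, KO 7 and KO 10. The groups overlapped, and the log2 fold change was -0.11 (95% interval -0.37 to 0.14, limma adjusted p-value 0.496). It was -0.01 with median-of-ratios scaling, -0.02 with voom, and between -0.18 and -0.07 with 1 sample left out.

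Atg4d (ENSMUSG00000002820.6, chromosome 9 from 21265293 to 21277772, plus strand) is a further paralog and had the lowest mean level of the 10 genes. It was at 4.33, 4.44 and 3.83 TPM in WT 4, WT 5 and WT 8, respectively, against 3.16, 2.81 and 3.33 TPM in KO 3, KO 7 and KO 10. Every KO sample was below every WT sample, but the log2 fold change of -0.34 (95% interval -0.65 to -0.03) did not pass, with 0.0962 as its limma adjusted p-value. The exons of the opposite-strand gene Kri1 cover 1405 bp of Atg4d, or 19.3% of its exon length, and the library kit named in the study's methods does not mark strand, so reads from this stretch cannot be told apart. Kri1 had a log2 fold change of -0.10.

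**Figure D2:**
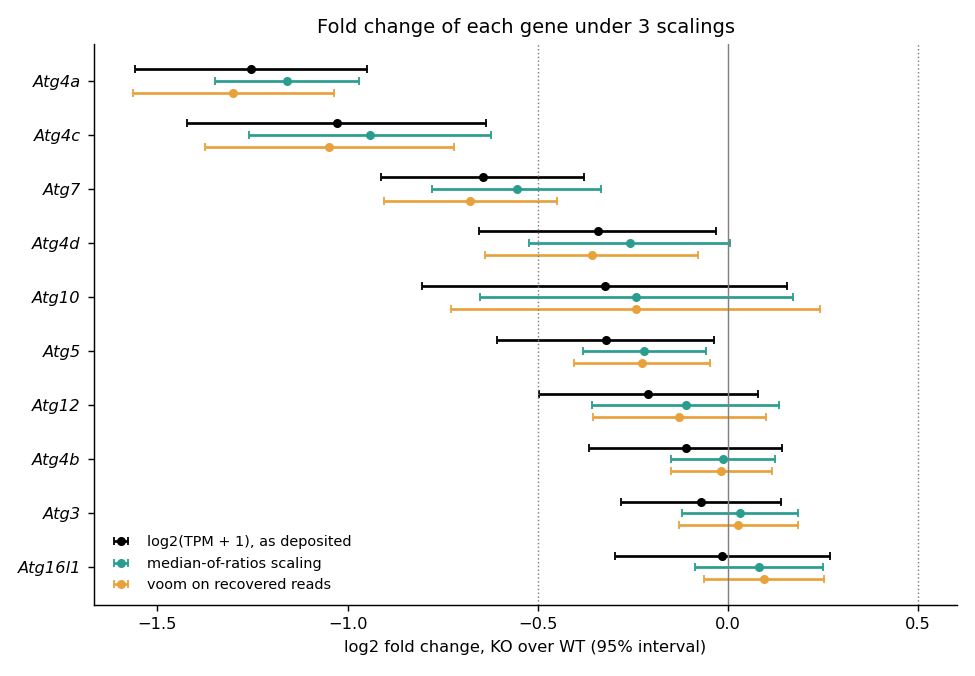
Log2 fold change of KO over WT (horizontal axis) with its 95% interval for each gene under 3 scalings, namely TPM as deposited (black), median-of-ratios scaling (green) and voom on recovered reads (orange). Dotted lines mark 0.5 on either side of 0. The intervals of Atg4a and Atg4c lie wholly below -0.5 under all 3 scalings, and those of Atg3 and Atg16l1 span 0 under each.

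TPM divides by gene length, here the merged length of all annotated exons, and on this scale the proteases were added up within a sample. That length can differ from the length of the transcripts expressed, so the sum and the shares are weighted by it. The 4 Atg4 genes together were at 46.0, 45.4 and 39.1 TPM in WT 4, WT 5 and WT 8, respectively, against 24.7, 29.6 and 26.9 TPM in KO 3, KO 7 and KO 10. The groups did not overlap, and the mean sum in KO was 62.2% of that in WT. Atg4b held 35.8% ± 0.131 (SD, n = 3) of the sum in WT and 53.0% ± 1.74 (SD, n = 3) in KO. The share of Atg4a was 31.6% ± 1.74 (SD, n = 3) in WT and 19.2% ± 0.638 (SD, n = 3) in KO, and that of Atg4c was 22.9% ± 1.53 (SD, n = 3) and 16.2% ± 3.39 (SD, n = 3). The share of Atg4d, at 9.67% and 11.6%, overlapped between the groups. Exact permutation tests (two-sided, n = 3 in each group) gave p = 0.1 for the sum and for the shares of Atg4a, Atg4b and Atg4c, which is the smallest p that 3 against 3 samples allow, and p = 0.3 for Atg4d. By the deposited values, Atg4b was the most abundant paralog in all 6 samples, with Atg4a close to it in WT and far below it in KO. The closeness in WT depends on the merged exon length that TPM divides by, 8278 bp for Atg4b and 2661 bp for Atg4a. In WT 4, 1108 reads were recovered for Atg4b and 327 for Atg4a. The level of Atg4a depends on how reads shared with Atg4a-ps were counted, which was not stated.

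**Figure D3:**
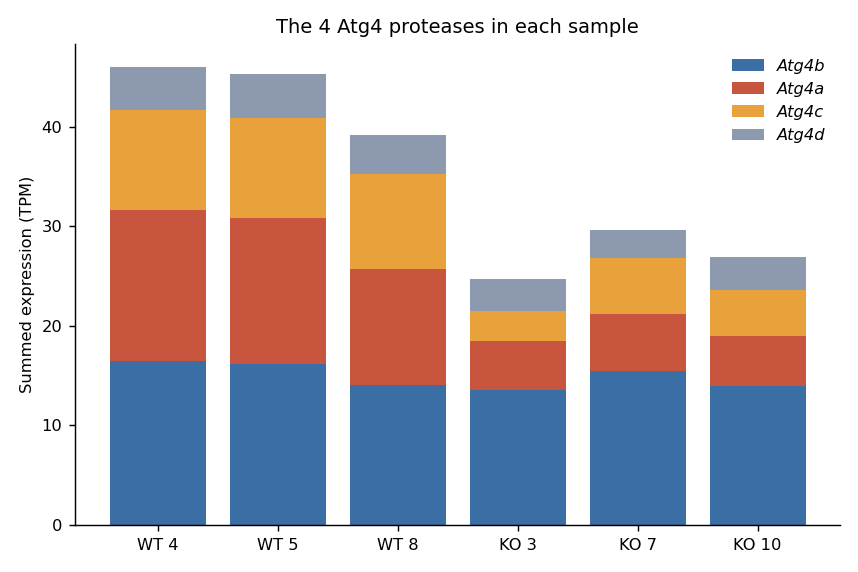
Summed expression in TPM (vertical axis) of the 4 Atg4 genes in each of the 6 samples, with each gene as a coloured segment. The Atg4b segment is of similar height throughout, from 13.6 to 16.5 TPM, and the sum is lower in the KO samples (24.7 to 29.6 TPM) than in the WT samples (39.1 to 46.0 TPM).

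Ratios between members within a sample do not depend on how the samples are scaled, and 7 such ratios were computed. The log2 ratio of Atg4a to Atg4b was -0.12, -0.14 and -0.28 in WT 4, 5 and 8 and -1.48, -1.43 and -1.49 in KO 3, 7 and 10. The KO samples were nearly identical and far below the WT samples, a difference of -1.29. The log2 ratio of Atg4c to Atg4b differed by -1.08 and that of Atg4d to Atg4b by -0.32, both with every KO sample below every WT sample. Without KO 7 the difference for Atg4d to Atg4b was -0.20.

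For the E1 enzyme against the ATG8-specific E2 enzyme, the log2 ratio of Atg7 to Atg3 was -2.40, -2.32 and -2.44 in WT 4, 5 and 8 and -2.99, -3.20 and -3.04 in KO 3, 7 and 10. In linear terms, the mean ratio of Atg7 TPM to Atg3 TPM was 0.191 in WT and 0.119 in KO cells. As TPM here divides by merged exon length, the ratio is not a count of transcripts. The log2 ratio of Atg16l1 to Atg5 was the only ratio in which every KO sample lay above every WT sample, with a mean of -1.42 ± 0.189 (SD, n = 3) in WT and -1.11 ± 0.115 (SD, n = 3) in KO. The ratios of Atg10 to Atg3 and of Atg12 to Atg5 overlapped between the groups. The 5 separated ratios had p = 0.1 in an exact permutation test (two-sided, n = 3 in each group), or 0.14 after Benjamini-Hochberg adjustment over the 7 ratios. The 2 overlapping ratios, Atg10 to Atg3 and Atg12 to Atg5, had exact p = 0.4 and 0.6.

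**Figure D4:**
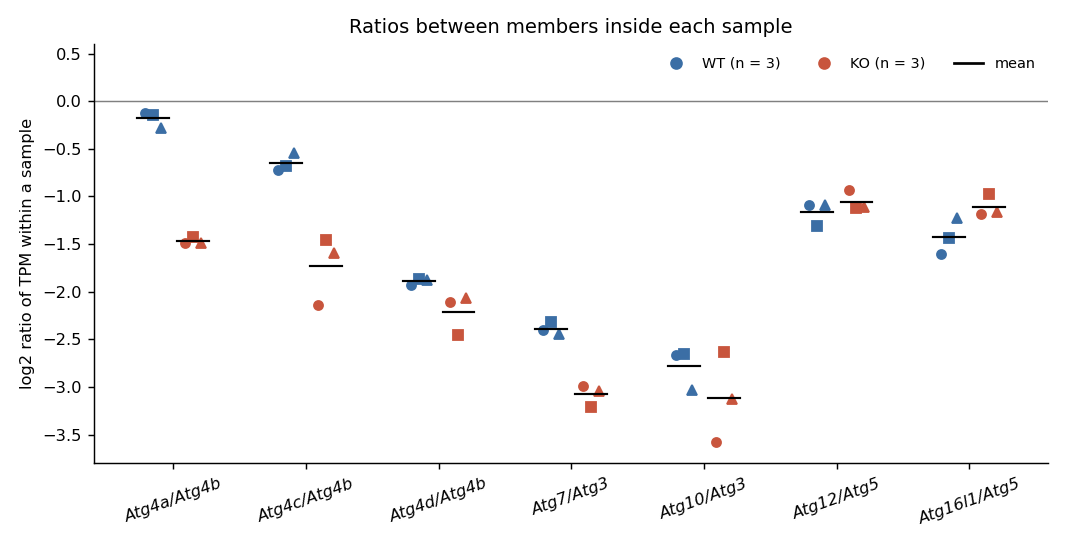
Log2 ratio of TPM between members within a sample (vertical axis) for 7 pairs of genes, with WT samples in blue, KO samples in red and group means as black lines. The ratio of Atg4a to Atg4b is near -0.18 in WT and near -1.47 in KO, and that of Atg12 to Atg5 overlaps between the groups.

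Windows at annotated transcription starts of the genes that fell are shown beside that of Atg4b, so that their sequences can be compared. Atg4b is a paralog that was not called and overlapped between the groups. Which starts these cells use was not tested. RefSeq windows of 300 bases (250 before and 50 from a transcription start, GRCm38.p6) were matched by symbol to 8 of the 10 genes. The letters in capitals match a searched motif, and each line runs 5′ to 3′ on the strand of the gene. For Atg4a and Atg4c the RefSeq start used is also the gene start in GENCODE, whereas it lies 27999 bases downstream of that gene start for Atg7 and 3405 bases downstream for Atg4b. The windows are chrX:140956657-140956956 for Atg4a, chr4:99193684-99193983 for Atg4c, chr6:114670846-114671145 for Atg7 and chr1:93754655-93754954 for Atg4b, all on the plus strand.
Atg4a: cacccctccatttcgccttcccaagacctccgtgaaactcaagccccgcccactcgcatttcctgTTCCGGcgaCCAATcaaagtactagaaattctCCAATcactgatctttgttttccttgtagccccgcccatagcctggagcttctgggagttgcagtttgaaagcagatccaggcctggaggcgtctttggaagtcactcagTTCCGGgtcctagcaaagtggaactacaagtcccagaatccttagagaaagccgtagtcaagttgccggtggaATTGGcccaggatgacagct
Atg4c: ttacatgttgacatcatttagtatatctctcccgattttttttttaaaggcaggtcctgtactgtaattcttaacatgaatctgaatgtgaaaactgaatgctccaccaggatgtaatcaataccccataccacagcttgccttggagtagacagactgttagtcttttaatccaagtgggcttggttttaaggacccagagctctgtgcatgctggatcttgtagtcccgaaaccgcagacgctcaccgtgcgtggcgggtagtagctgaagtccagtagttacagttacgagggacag
Atg7: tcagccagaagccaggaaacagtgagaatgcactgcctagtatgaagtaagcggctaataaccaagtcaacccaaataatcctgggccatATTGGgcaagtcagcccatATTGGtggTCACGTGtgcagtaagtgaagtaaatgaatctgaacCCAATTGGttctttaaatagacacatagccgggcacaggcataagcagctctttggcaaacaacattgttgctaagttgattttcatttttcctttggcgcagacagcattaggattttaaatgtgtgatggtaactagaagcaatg
Atg4b: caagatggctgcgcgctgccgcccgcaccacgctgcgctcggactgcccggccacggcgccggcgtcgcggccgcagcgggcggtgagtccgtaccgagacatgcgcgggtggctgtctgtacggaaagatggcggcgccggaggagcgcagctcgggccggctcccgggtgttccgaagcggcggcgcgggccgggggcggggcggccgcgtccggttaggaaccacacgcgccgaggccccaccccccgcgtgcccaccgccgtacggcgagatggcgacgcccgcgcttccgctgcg

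Both strands of each window were searched for the ETS core CCGGAA, the NRF1 core GCATGCG, the CCAAT box CCAAT, the CRE half-site TGACGT, the E-box CACGTG, the CLEAR core TCACGTG bound by the TFEB family, and the TATA box TATAAA. The Atg4a window shown held the ETS core at 2 places and the CCAAT box at 3. Of all 32851 windows, 14.9% held the ETS core and 37.4% held the CCAAT box. The Atg7 window held 4 CCAAT boxes and 1 CLEAR core, which contains the E-box, and 3.77% of all windows held the CLEAR core. The window of Atg3, which was not called, held the CLEAR core as well, and it also held the ETS core at 2 places. Neither the Atg4c nor the Atg4b window shown held any of the 7 motifs.

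The windows differed in base composition. Atg4b had a GC content of 78.0% with 55 CpG dinucleotides, whereas Atg4a, Atg4c and Atg7 had 52.7%, 44.7% and 42.7% with 11, 8 and 4. The median over all windows was 52.7% and 7. A second RefSeq start of Atg4c, 213 bases downstream, had 64.7% and 30 and none of the 7 motifs. A second start of Atg4a, upstream of the first, had 40.0% and 3, with a CRE half-site and a TATA box but neither the ETS core nor the CCAAT box. Composition and matches thus depended on which start was taken. The window of Atg4d, the other paralog that was not called, had 61.7% and 18, with 1 CCAAT box.

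The neighbours of this machinery in the autophagy pathway were read from the same fit. The ATG8 substrates comprised 5 genes (Map1lc3a, Map1lc3b, Gabarap, Gabarapl1 and Gabarapl2). Of these, 0 were lower and 0 higher, against 9.03% and 1.64% of all tested genes. The median log2 fold change of the 5 genes was 0.30, and all 5 values were above 0, where 57.4% of all tested genes were below 0. Gabarap was at 256 ± 10.5 TPM (SD, n = 3) in WT and 349 ± 13.0 TPM (SD, n = 3) in KO, a log2 fold change of 0.45 (limma adjusted p-value 0.00555) that missed both thresholds. With median-of-ratios scaling and with voom, 2 of the 5 genes were higher, Gabarap and Map1lc3b, as were 473 and 642 of all 14799 tested genes, respectively. Among 4 partners of the ATG16L1 complex (Atg16l2, Tecpr1, Wipi2 and Rb1cc1), 0 were called in either direction by limma or voom, against 10.7% of all tested genes in limma, and 1 (Tecpr1) had an unadjusted limma p-value under 0.05. The median log2 fold change was -0.11.

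Of 18 other core autophagy genes, 5 were lower and 0 higher, against 9.03% and 1.64% of all tested genes, and the median log2 fold change was -0.08. The 5 became 2 without WT 5 (Pik3c3 and Pik3r4) or without KO 3 (Pik3c3 and Atg13), and 1 with no filter on low values (Pik3c3). The lower genes included Pik3c3, the lipid kinase of the class III complex, with a log2 fold change of -1.59, and its partners Pik3r4 (-1.08) and Atg14 (-0.95). Atg13, a subunit of the initiating ULK kinase complex, had a log2 fold change of -0.73, and Atg9a, a lipid scramblase of autophagosome growth, had -0.69. With median-of-ratios scaling and with voom, Ulk1 and Atg9b were called higher, with log2 fold changes of 0.60 and 1.02 under the former and 0.63 and 1.96 under the latter. Atg9b was at 0.609 TPM in WT (11 to 31 reads) and 2.12 TPM in KO, so that it entered the test only through the group in which it was higher.

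**Figure D5:**
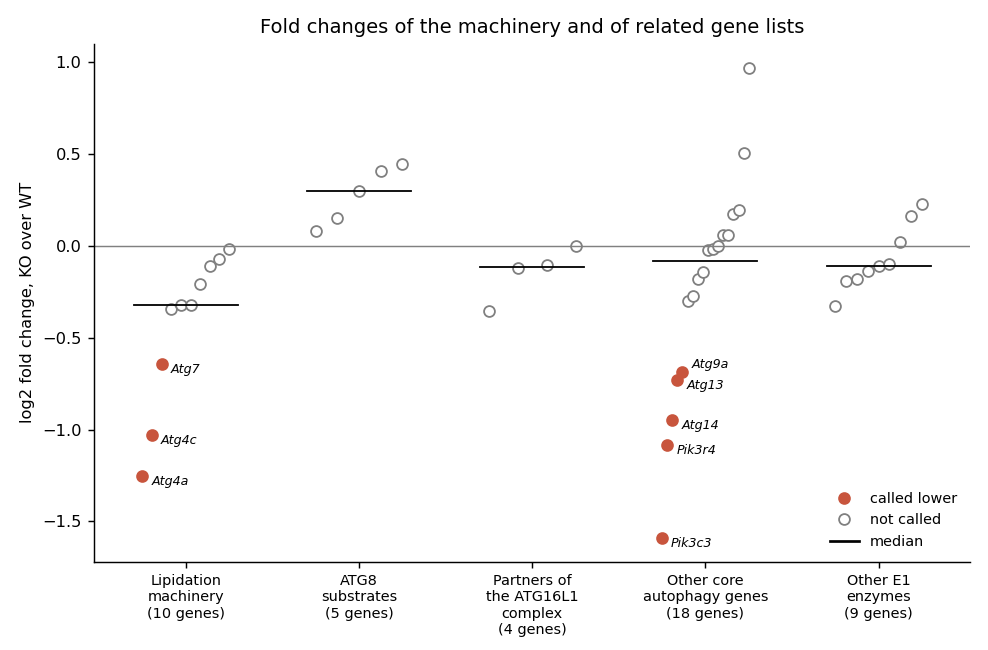
Log2 fold change of KO over WT (vertical axis) for the 10 genes of the machinery and for 4 related lists, with each gene as a point, called genes filled in red and list medians as black lines. The machinery has 3 filled points, the other core genes 5, and the ATG8 substrates, the partners and the other E1 enzymes none.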

How the data were processed

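RNA sequencing libraries of 3 WT and 3 KO MEF samples were compared, and samples were grouped by their titles. The authors aligned reads to mm10 with STAR and compared genes with DESeq2, per the study's methods, while the submitters' processing notes list Bowtie 0.12.2 without a role. The counting program was not given in the sources used here. The authors deposited TPM for each sample, together with their own log2 fold changes and adjusted p-values, which were not used here. All 26898 gene identifiers matched GENCODE release M21 (GRCm38).

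TPM multiplied by merged exon length gave whole multiples of a single step per sample for 100% of 20034 to 20637 values (tolerance 0.05), from which reads were recovered. Intervals on these reads cover counting error only. Fold changes were estimated from log2(TPM + 1) by limma (3.58.1, R 4.3.3; variance trend), keeping genes whose WT or KO mean reached 1 TPM, after the filter that the study's methods describe. Genes were called at the fold change and adjusted p-value thresholds that the study used. Log2(TPM + 1) understates changes of low genes. The fit and voom were tested on simulated data. Alternatives were a pseudocount of 0.1, no filter or one at 10 TPM, no variance trend, median-of-ratios scaling, removal of the 2 most abundant RNAs, voom, other thresholds and leaving out each sample. All members, Kansl1 and the called genes of 4 further lists are named, at most 4 per list by size of change. Atg9a, Gabarap, Map1lc3b, Ulk1 and Atg9b were named in addition after their values were seen, as were Tecpr1 and Uba6 for their unadjusted limma p-values. Values of Uba1 and Uba3 are also given, although neither was called. Members and lists were chosen with earlier results of these data known.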

Additional observations from a re-analysis of the deposited data

How the results depend on the processing

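Against 3 members lower, 1 was lower with no filter and 1 with the filter at 10 TPM (where 6 members were tested), in each case Atg4a, and leaving out 1 sample gave 1 to 2. The number of members higher was 0 throughout. Atg4a was lower under every alternative that was run (limma adjusted p-value 9.7e-08 to 0.00447), whereas with no filter Atg7 and Atg4c had limma adjusted p-values of 0.0159 and 0.0171, and with no variance trend Atg4c had 0.00524. Over the alternatives in which they were tested (all but the filter at 10 TPM), limma adjusted p-values ran from 0.0024 to 0.0222 for Atg7 and from 0.00199 to 0.0171 for Atg4c, and voom gave 0.000764 and 0.000538. Signs reversed for Atg3 with median-of-ratios scaling (0.032) and voom (0.028), and for Atg16l1 with median-of-ratios scaling (0.082), voom (0.094), without the 2 most abundant RNAs (0.0022) and without KO 3 (0.087, with -0.114 to 0.087 over all samples left out). Median-of-ratios scaling and voom shifted the median over all genes by 0.092 and 0.097, and 8 of 10 members were then below 0 instead of 10. Over all genes, 1337 lower and 242 higher became 286 and 55 with no filter, 2453 and 694 at an adjusted p-value under 0.05, 600 and 105 beyond a log2 fold change of 1, 617 to 938 and 84 to 252 without 1 sample, and 473 and 642 higher with median-of-ratios scaling and voom. ATG8 substrates had 2 higher with each of the latter. Other core genes had 1 lower with no filter, 3 at 10 TPM, 2 beyond a log2 fold change of 1 and 2 to 5 without 1 sample. They had 1 higher at 10 TPM, with no variance trend and without the 2 most abundant RNAs, and 2 with median-of-ratios scaling, voom and an adjusted p-value under 0.05. Atg9b, which entered the test only through its KO level, was the 1 with no variance trend and 1 of each of the 2. The causes were not tested. No paired analysis was possible because no replicate number occurs in both groups. Atg10 had the fewest reads of the members, with 36 to 101.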

Other observations

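ATG7 belongs to the family of E1 enzymes that activate ubiquitin-like proteins, and 9 other genes of this kind were read from the same fit. None of them was called in limma, in either direction, where 1 had an unadjusted p-value under 0.05 (Uba6), and voom also called 0. Of all tested genes, 10.7% were called in either direction. The median log2 fold change of the 9 genes was -0.11, and that of Uba6 was -0.33. Uba1, the main E1 enzyme of ubiquitin, was at 363 ± 21.9 TPM (SD, n = 3) in WT and 368 ± 24.5 TPM (SD, n = 3) in KO, and Uba3, which serves NEDD8, had a log2 fold change of -0.18. The difference between Atg7 and these genes was not tested.

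The genes whose profile over the 6 samples was most like that of Atg7 were sought among 4139 tested genes with a mean TPM within 2-fold of it, by Euclidean distance of log2(TPM + 1) after subtraction of the WT mean. The nearest were Abca7, Kxd1, 3830406C13Rik, Zfyve27 and Tyw1, at distances of 0.075 to 0.144 log2 units. Their KO means were 55.3% to 61.8% of their WT means, against 58.9% for Atg7, a likeness that the choice by distance fixes.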
